A study of Mus musculus with 45 samples.

Results

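The spleens of mice bearing 67NR tumors were compared with the spleens of healthy control mice by RNA sequencing. The comparison takes 6 of the 45 samples of the study, 3 spleens of each group, and the 19267 of 55367 gene symbols that had more than 10 counts over these 6 libraries. All mice were female Balb/c, and the controls as well as the tumor-bearing mice carried porous polycaprolactone scaffolds under the skin, implanted at an age of 7 to 8 weeks and 2 weeks before inoculation. 67NR is a nonmetastatic line of the triple-negative breast cancer series from a BALB/cfC3H tumor, and 2000000 cells were placed in the mammary fat pad. Spleens were taken on day 14. The controls were healthy mice without tumors, and the sources used here do not state whether they received a sham injection. The labels do not link the tissues of a mouse, so a spleen cannot be tied to its tumor or lung. Spleens of mice with tumors of 4T07, a related invasive line also classed as nonmetastatic, or of the metastatic line 4T1 serve below only to place the 67NR values.

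The spleen filters blood and holds B cell follicles, T cell zones and red pulp macrophages that take up old red cells. In the mouse it also makes blood cells throughout life. Red cell production in the red pulp expands under demand, through dividing erythroid precursors that build hemoglobin, a spectrin membrane skeleton and blood group proteins. Mammary tumors that secrete myeloid growth factors are known to enlarge the spleen with granulocytes.

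The 6 libraries held 3914562 to 5149589 counts, and a level of 3 counts, the floor used here for detection, stood for 0.583 to 0.766 CPM (each gene's counts per 1e6 counts of its library). These floors cover counting error only. Markers of the spleen were present in every library: Ighd of naive B cells lay between 271 and 303 CPM, and Spic, the transcription factor of red pulp macrophages, between 92.1 and 125 CPM. Transcripts of the 67NR tumor were at or near 0. Rhox5 stood at 798 ± 127 CPM (SD, n = 3) and Pnma5 at 362 ± 72.8 CPM in the primary 67NR tumors, and neither had a count in any 67NR spleen. Control library 8 stood apart through pancreatic transcripts, whose 26 markers summed to 1417 CPM there, 103 to 109 CPM in the other controls and 45.0 to 89.9 CPM in 67NR spleens. Cytosolic ribosomal protein genes took 4.94% to 8.10% of the counts in controls and 3.82% to 5.40% in 67NR spleens. These pancreatic and ribosomal shares moved between libraries beside the results below, and their part in them was not tested unless a value is given.

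A gene was called when edgeR's quasi-likelihood test gave a Benjamini-Hochberg adjusted p under 0.10 and the fold change was over 2, with all 12 spleens in the fit. Of the 19267 genes, 279 (1.45%) were called higher in 67NR spleens and 207 (1.07%) lower. Without the limit on fold change, 845 genes (4.39%) were higher and 568 (2.95%) lower at the same adjusted p. The 67NR libraries were all above the controls in 16.7% of genes and all below them in 7.64%. The median log2 fold change over all genes was -0.0036. DESeq2's Wald test called 249 genes higher and 208 lower, and shared 400 genes with the edgeR calls. These counts depended on single libraries: leaving out each in turn gave 52 genes without control library 8, 158 without 67NR library 16, 257 without control library 7, 268 without 67NR library 18, 445 without 67NR library 17 and 1083 without control library 9. No called gene changed direction in any of these fits, and 41 of the 486 were called in all 6. With 3 spleens against 3, the smallest p that an exact two-sided permutation test allows for any gene is 0.1. The edgeR p-values rest on the spread within the 4 groups of all 12 spleens.

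**Figure D1:**
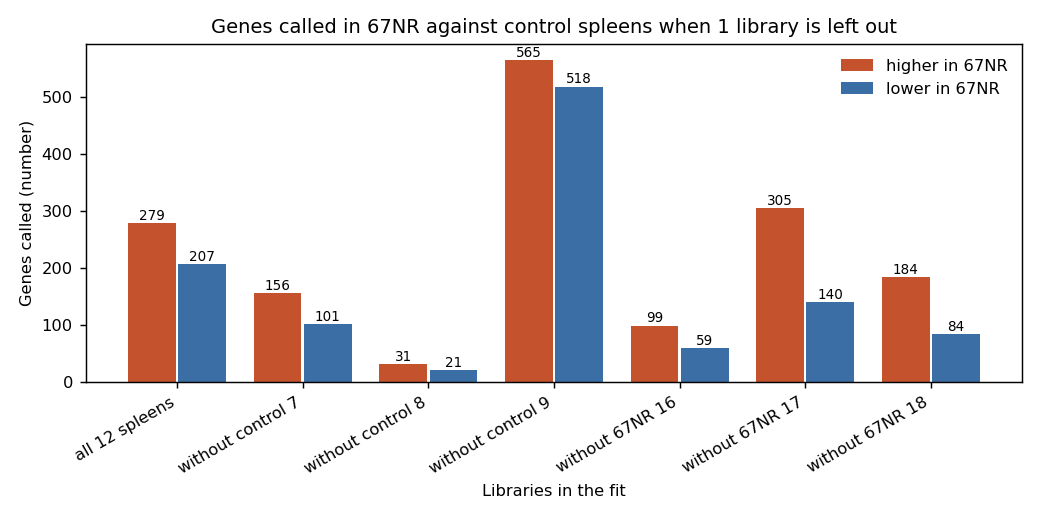
Genes called higher (orange) and lower (blue) in 67NR against control spleens, with all 12 spleens in the fit and with each of the 6 libraries left out in turn; the vertical axis is the number of genes. The total fell from 486 to 52 without control library 8 and rose to 1083 without control library 9.

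A number of genes of red cell precursors, though not the globins, rose in 67NR spleens. Of 23 erythroid markers tested, 6 were called higher, none was called lower, 17 were not called, and 13 were higher at an adjusted p under 0.10 with any fold. The share of all genes called higher was 1.45%. The median log2 fold change of the 23 was 0.80, against -0.0036 over all genes. In 18 of them every 67NR spleen lay above every control, against 16.7% of all genes. The promoter windows of the 5 of these 6 genes that had one are shown because the genes rose together and GATA1, the factor that drives red cell genes, is known to bind GATA sites. Gata1 itself had a log2 fold change of 0.33 and was not called (edgeR adjusted p = 0.280). The windows run from 250 bases before to 50 after the start of the gene (RefSeq, GRCm38.p6), and capitals mark AGATAA or TGATAA on either strand. Klf1 lies on the plus strand at chr8:84901732-84902031, Rhag on the plus strand at chr17:40810899-40811198, Ermap on the minus strand at chr4:119189946-119190245, Kel on the minus strand at chr6:41704276-41704575 and Sptb on the minus strand at chr12:76710498-76710797.
Klf1: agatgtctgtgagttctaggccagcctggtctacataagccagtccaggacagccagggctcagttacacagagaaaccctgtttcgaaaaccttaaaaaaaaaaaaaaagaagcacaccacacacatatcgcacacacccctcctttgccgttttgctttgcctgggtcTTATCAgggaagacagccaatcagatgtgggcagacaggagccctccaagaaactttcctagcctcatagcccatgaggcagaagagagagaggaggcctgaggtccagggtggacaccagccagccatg
Rhag: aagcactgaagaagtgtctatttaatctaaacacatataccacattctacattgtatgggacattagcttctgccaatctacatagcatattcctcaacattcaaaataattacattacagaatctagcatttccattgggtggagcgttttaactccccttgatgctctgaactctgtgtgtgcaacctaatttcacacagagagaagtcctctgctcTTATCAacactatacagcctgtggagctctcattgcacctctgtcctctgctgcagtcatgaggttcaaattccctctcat
Ermap: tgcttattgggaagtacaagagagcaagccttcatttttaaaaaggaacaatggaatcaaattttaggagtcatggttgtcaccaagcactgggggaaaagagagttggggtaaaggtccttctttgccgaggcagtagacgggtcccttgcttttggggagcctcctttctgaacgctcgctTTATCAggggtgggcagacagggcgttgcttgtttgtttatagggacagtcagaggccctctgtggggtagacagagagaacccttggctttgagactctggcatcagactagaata
Kel: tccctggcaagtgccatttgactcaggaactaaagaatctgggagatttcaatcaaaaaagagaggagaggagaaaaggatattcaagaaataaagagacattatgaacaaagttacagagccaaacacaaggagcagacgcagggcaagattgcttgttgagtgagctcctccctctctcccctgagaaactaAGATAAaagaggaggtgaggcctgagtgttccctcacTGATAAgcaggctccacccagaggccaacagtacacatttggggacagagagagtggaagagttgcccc
Sptb: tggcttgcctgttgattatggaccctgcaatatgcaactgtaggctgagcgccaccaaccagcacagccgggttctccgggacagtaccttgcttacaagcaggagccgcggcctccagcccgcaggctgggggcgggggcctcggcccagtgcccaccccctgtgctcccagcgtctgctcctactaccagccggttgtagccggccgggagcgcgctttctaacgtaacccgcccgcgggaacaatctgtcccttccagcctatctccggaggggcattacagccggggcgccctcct
The windows of Klf1, Rhag, Ermap and Kel held either motif and that of Sptb held neither. Of the 23 markers, 16 had a window in the table and 13 of these held either motif, against 18.6% of all 32851 windows. A match of these letters is a description of the sequence and not a measured site.

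Klf1, the transcription factor that switches on adult globin and membrane genes, stood at 95.3, 78.7 and 127 CPM in the controls and at 292, 193 and 261 CPM in the 67NR spleens. The groups did not overlap. Its log2 fold change was 1.22 (SE 0.20, edgeR adjusted p = 0.00944), and it was called in every alternative that was run. Rhag, a subunit of the Rh complex of the red cell membrane, was at 41.9, 39.9 and 33.6 CPM in controls and at 140, 75.6 and 101 CPM in 67NR spleens (log2 fold change 1.36, SE 0.23, edgeR adjusted p = 0.0115). It was also called in every alternative, and its lowest 67NR spleen was above its highest control. Slc25a37, which carries iron into the mitochondria for heme synthesis, rose from 693 ± 123 CPM to 1674 ± 227 CPM (SD, n = 3 per group), a log2 fold change of 1.18 (SE 0.21, edgeR adjusted p = 0.0136).

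The other erythroid genes that rose belong to the red cell membrane. Sptb, which encodes the erythroid beta spectrin of the membrane skeleton, was at 75.7, 91.6 and 132 CPM in controls and at 345, 211 and 242 CPM in 67NR spleens. Ermap, the erythroblast membrane protein of the Scianna blood group, was at 69.9, 63.9 and 106 CPM against 275, 153 and 208 CPM. Kel, the Kell blood group protein, was at 37.3, 41.5 and 53.5 CPM against 125, 72.0 and 91.3 CPM. In each of the 3 genes the groups did not overlap, with library 16 the highest of the 67NR spleens and library 17 the lowest. Their log2 fold changes were 1.33, 1.32 and 1.04, with edgeR adjusted p-values of 0.0136, 0.0136 and 0.0258. Just under the 2-fold limit, Car2, the cytosolic carbonic anhydrase of red cells, went from 565 ± 59.2 to 1201 ± 283 CPM (SD, n = 3 per group; log2 fold change 0.99, edgeR adjusted p = 0.0163). Without control library 8 only Klf1 and Rhag of the erythroid markers passed the threshold.

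The globins themselves, the most abundant members, did not pass the test. Hba-a1 was at 16901 ± 1322 CPM in controls and 24083 ± 273 CPM in 67NR spleens (SD, n = 3 per group), with a log2 fold change of 0.42 (edgeR adjusted p = 0.365). Hba-a2, a nearly identical copy whose reads may be shared with Hba-a1, had a log2 fold change of 0.40. The beta globins Hbb-bs and Hbb-bt had log2 fold changes of -0.14 and -0.20 with adjusted p-values of 0.826 and 0.689. Alas2, the first enzyme of heme synthesis in red cells, was at 22.7 ± 15.0 CPM in controls and 15.5 ± 1.88 CPM in 67NR spleens. The transferrin receptor gene Tfrc, through which precursors take up iron, had a log2 fold change of 0.67 (edgeR adjusted p = 0.0274), and Steap3, the endosomal reductase that makes this iron usable, rose by 1.34 on the log2 scale (edgeR adjusted p = 0.0102). Steap3 was the only called member of 22 iron and heme handling genes tested. Gfi1b, a repressor needed in red cell and platelet precursors, rose from 7.95 ± 4.07 to 22.6 ± 8.57 CPM and was the only called member of 12 progenitor markers. None of 14 platelet and megakaryocyte markers was called, beside 1.45% of all genes called higher and 1.07% lower. In these bulk samples, more cells of a type cannot be told apart from more RNA per cell.

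The cell cycle list had the most members called higher. Of 48 genes of DNA replication and mitosis tested, 12 were called higher and none lower, 34 were higher at an adjusted p under 0.10 with any fold, and all 48 had a log2 fold change above 0. Their median was 0.85 against -0.0036 over all genes. In 38 of the 48 the 67NR spleens were all above the controls, against 16.7% of all genes. The share of all genes called higher was 1.45%. The summed level of the list lay between 3312 and 4671 CPM in controls and between 6340 and 7857 CPM in 67NR spleens. The promoter windows of Ube2c (plus strand, chr2:164769679-164769978) and Kif23 (minus strand, chr9:61946750-61947049) are given because TTTGAA, known as the CHR element, and CCAAT are known from genes expressed late in the cell cycle. Both are among the 4 called members whose window held TTTGAA, and windows without it are not shown. Capitals mark both motifs on either strand, and overlapping matches run together.
Ube2c: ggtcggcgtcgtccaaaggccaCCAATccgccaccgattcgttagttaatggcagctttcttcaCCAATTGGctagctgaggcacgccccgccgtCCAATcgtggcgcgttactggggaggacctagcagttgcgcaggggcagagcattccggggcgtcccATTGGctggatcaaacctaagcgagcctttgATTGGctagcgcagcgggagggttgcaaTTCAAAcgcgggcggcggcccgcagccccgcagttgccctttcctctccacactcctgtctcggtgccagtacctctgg
Kif23: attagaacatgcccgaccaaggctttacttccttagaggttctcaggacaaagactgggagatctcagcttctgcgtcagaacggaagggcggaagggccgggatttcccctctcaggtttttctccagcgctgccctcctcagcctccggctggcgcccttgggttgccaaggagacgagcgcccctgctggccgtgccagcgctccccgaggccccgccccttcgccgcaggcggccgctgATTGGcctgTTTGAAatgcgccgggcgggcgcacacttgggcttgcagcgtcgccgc
TTTGAA was present in 18 of the 38 members with a window, against 17.9% of all windows. Of the 9 called members with a window, 4 held it. CCAAT was present in 37.4% of all windows and was not counted over the members.

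Ube2c, the ubiquitin-conjugating enzyme of the anaphase-promoting complex, had the largest change of the list. It was at 62.1, 56.8 and 62.3 CPM in controls and at 246, 132 and 156 CPM in 67NR spleens (log2 fold change 1.47, SE 0.20, edgeR adjusted p = 0.00944). The lowest 67NR spleen was well above all 3 controls, and Ube2c was called in every alternative. Birc5, the survivin subunit of the chromosomal passenger complex, was at 336, 392 and 482 CPM against 702, 1022 and 957 CPM (log2 fold change 1.05, SE 0.24, edgeR adjusted p = 0.0273). Its partner kinase Aurkb went from 12.8 ± 2.50 to 28.6 ± 11.0 CPM (SD, n = 3 per group; edgeR adjusted p = 0.0561). Ccna2, the cyclin of S and G2 phase, went from 75.9 ± 21.4 to 162 ± 34.8 CPM, and Kif23, a kinesin of cytokinesis, from 46.1 ± 4.92 to 105 ± 27.8 CPM.

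Replication genes rose as well. Rrm1 and Rrm2, the subunits of ribonucleotide reductase, which makes the building blocks of DNA, had log2 fold changes of 1.14 and 1.21. The replication licensing genes Cdt1 and Mcm2 had log2 fold changes of 1.15 and 1.06, and Cdt1 went from 104 ± 42.9 to 246 ± 48.6 CPM (SD, n = 3 per group). E2f8, Pbk and Uhrf1 completed the 12, with log2 fold changes of 1.15, 1.02 and 1.20. The proliferation markers Mki67 and Top2a stayed under the 2-fold limit, at log2 fold changes of 0.86 and 0.69 with edgeR adjusted p-values of 0.0201 and 0.0808. Library 17 was the lowest 67NR spleen for 10 of these 12 genes and the highest for Birc5. The number of called members moved from 12 to 1 without control library 8, to 3 without 67NR library 16, to 20 without control library 9 and to 22 without 67NR library 17, whereas the median log2 fold change stayed between 0.67 and 0.96 in these fits. All 48 genes had a known transcript length. With an offset for it, Ccna2 was no longer called and Cdkn3, an inhibitor of cyclin-dependent kinases, was, so that 12 members were called again.

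**Figure D2:**
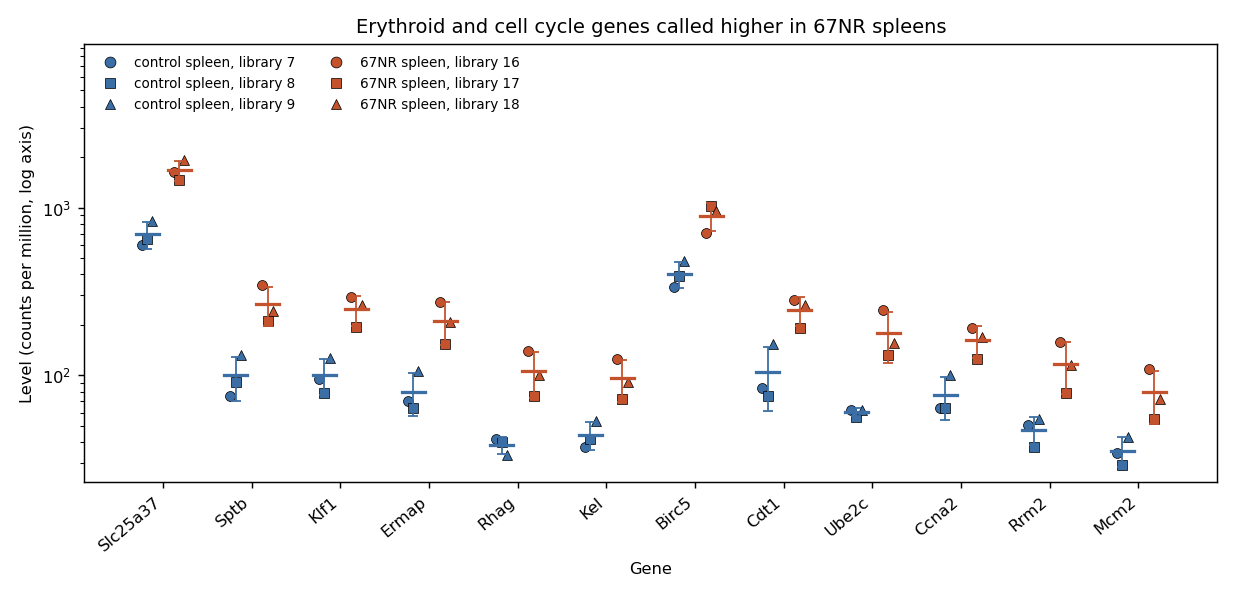
Levels in CPM on a log axis of 6 erythroid and 6 cell cycle genes called higher in 67NR spleens, with 1 symbol per library, the group mean as a bar and 1 SD as an error bar (n = 3 per group). Every 67NR spleen lies above every control spleen for all 12 genes, for example at 193 to 292 CPM against 78.7 to 127 CPM for Klf1.

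Among the genes that fell were 3 of antigen presentation by MHC class II, the molecules with which B cells, dendritic cells and macrophages show peptides to helper T cells. Of 12 genes tested, these 3 (H2-Eb1, H2-Aa and H2-Ea) were called lower, beside 1.07% of all genes, and 9 were not called. All 12 had a log2 fold change below 0, and the median was -0.58. The summed level of the list was 6239 to 8767 CPM in controls and 4483 to 5131 CPM in 67NR spleens. The promoter windows of H2-Aa (minus strand, chr17:34287774-34288073) and H2-Eb1 (plus strand, chr17:34305617-34305916) are shown with CCAAT on either strand in capitals, since the Y box of class II promoters is known to hold an inverted CCAAT.
H2-Aa: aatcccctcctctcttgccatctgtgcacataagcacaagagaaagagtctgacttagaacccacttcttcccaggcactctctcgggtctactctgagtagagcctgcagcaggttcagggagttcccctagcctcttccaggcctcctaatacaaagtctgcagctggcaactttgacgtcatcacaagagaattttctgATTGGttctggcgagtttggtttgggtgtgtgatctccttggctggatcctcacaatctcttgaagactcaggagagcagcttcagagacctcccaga
H2-Eb1: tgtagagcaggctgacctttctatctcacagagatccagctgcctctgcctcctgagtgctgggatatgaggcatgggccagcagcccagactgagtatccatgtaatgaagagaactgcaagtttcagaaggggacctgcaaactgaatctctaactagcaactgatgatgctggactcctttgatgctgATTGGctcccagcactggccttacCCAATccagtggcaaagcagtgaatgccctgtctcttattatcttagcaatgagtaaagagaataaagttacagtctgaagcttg
CCAAT was found in 6 of the 8 class II genes with a window, against 37.4% of all windows.

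H2-Eb1, a class II beta chain, was at 957, 1124 and 773 CPM in controls and at 442, 461 and 325 CPM in 67NR spleens. The groups did not overlap, and the gene fell by 1.31 on the log2 scale (SE 0.21, edgeR adjusted p = 0.00944) and was called in every alternative. H2-Aa, an alpha chain, was at 2326, 2224 and 1128 CPM against 1050, 1135 and 838 CPM, so that control library 9 lay inside the range of the 67NR spleens (log2 fold change -1.01, edgeR adjusted p = 0.0575). H2-Ea likewise overlapped, with controls at 2129, 1235 and 752 CPM and 67NR spleens at 597, 639 and 809 CPM (log2 fold change -1.12, edgeR adjusted p = 0.0644). H2-Ab1, at 1363 ± 145 CPM in controls and 749 ± 71.1 CPM in 67NR spleens (SD, n = 3 per group), did not overlap and missed the 2-fold limit with a log2 fold change of -0.96. Cd74, the invariant chain that accompanies class II molecules, had a log2 fold change of -0.08, and Ciita, the class II transactivator, of -0.46 with an adjusted p of 0.193. Without control library 8, 67NR library 16 or 67NR library 18, only H2-Eb1 of the list was called.

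Of 21 genes of MHC class I presentation, 2 were called lower, beside 1.07% of all genes. Psmb9, an immunoproteasome subunit, went from 95.7 ± 35.2 to 41.4 ± 16.3 CPM (SD, n = 3 per group), and H2-M3, which presents formylated peptides, from 28.8 ± 12.8 to 13.4 ± 2.50 CPM. Their controls reached down to 56.3 and 15.1 CPM in library 9, below the highest 67NR spleen at 58.4 and 16.1 CPM. B2m, the light chain of class I molecules, was at 2039 ± 133 CPM in controls and 1872 ± 225 CPM in 67NR spleens, a log2 fold change of -0.22 that did not pass the test (edgeR adjusted p = 0.547).

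Some markers of natural killer and cytotoxic T cells fell. Of 15 such genes tested, 3 were called lower and 6 were lower at an adjusted p under 0.10 with any fold. The shares over all genes were 1.07% and 2.95%. The median log2 fold change of the 15 was -0.76. The summed level was 373 to 467 CPM in controls and 199 to 307 CPM in 67NR spleens. Gzma, the granzyme A of cytotoxic granules, was at 98.3, 129 and 83.9 CPM in controls and at 30.2, 58.8 and 58.1 CPM in 67NR spleens (log2 fold change -1.19, SE 0.28, edgeR adjusted p = 0.0340). Klrb1c, the NK1.1 receptor gene, went from 7.14 ± 1.21 to 3.15 ± 0.983 CPM (SD, n = 3 per group). Gzmb fell from 2.50 ± 0.445 to 0.599 ± 0.209 CPM, which rests on at most 13 counts in a control and 4 in a 67NR library. Nkg7 and Prf1, also genes of cytotoxic granules, did not overlap between groups and had log2 fold changes of -0.97 and -0.88. In 7 of the 15 genes every 67NR spleen lay below every control, against 7.64% of all genes. Ncr1 and Eomes, which define natural killer cells, had log2 fold changes of 0.11 and 0.03 with adjusted p-values of 0.867 and 0.971. None of the 15 was called without control library 8 or without 67NR library 16.

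**Figure D3:**
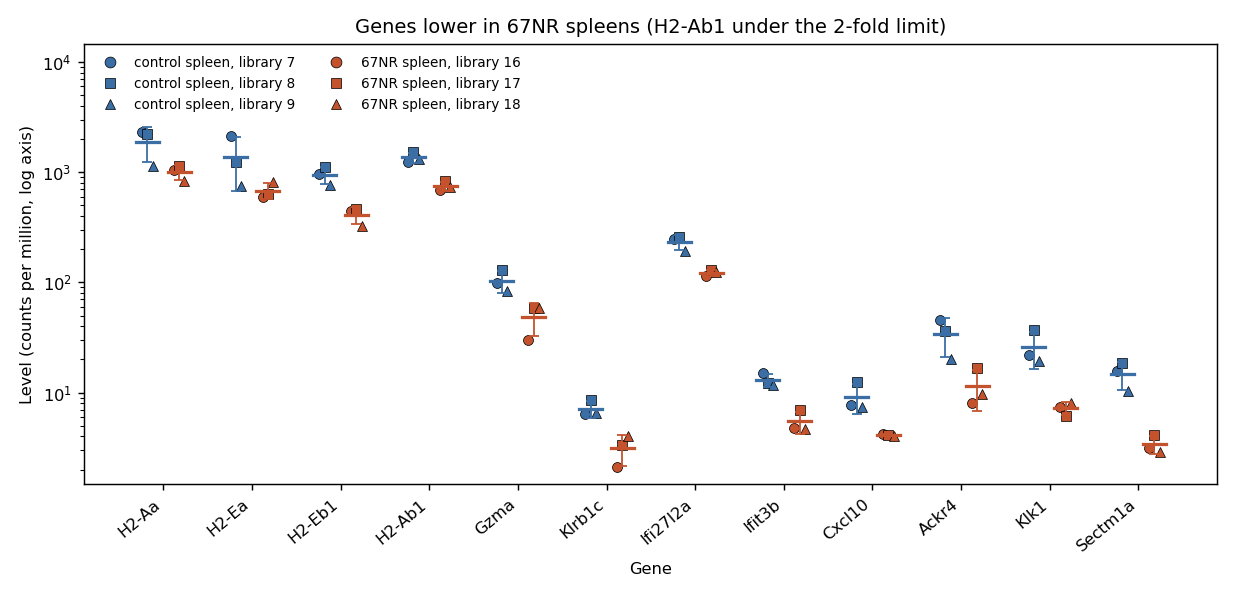
Levels in CPM on a log axis of 12 genes that were lower in 67NR spleens, with 1 symbol per library, the group mean as a bar and 1 SD as an error bar (n = 3 per group). The groups overlap for H2-Aa and H2-Ea and not for the other 10 genes, and H2-Ab1, with a log2 fold change of -0.96, was not called.

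Interferon-stimulated genes gave calls in both directions, more of them lower than higher. Of 54 tested, 50 were not called, Oas3 was called higher and Ifi27l2a, Ifit3b and Cxcl10 were called lower. Over all genes 1.45% were called higher and 1.07% lower. At an adjusted p under 0.10 with any fold, 9 of the 54 were lower and 3 higher, against 2.95% and 4.39% of all genes. The median log2 fold change of the 54 was -0.15. Oas3, an enzyme that senses double-stranded RNA, was at 8.74, 15.0 and 13.8 CPM in controls and at 30.2, 35.3 and 39.2 CPM in 67NR spleens (log2 fold change 1.39, edgeR adjusted p = 0.0148). Ifi27l2a went from 233 ± 36.6 to 123 ± 7.66 CPM and Ifit3b from 13.0 ± 1.88 to 5.47 ± 1.23 CPM (SD, n = 3 per group). Cxcl10, the chemokine that attracts cells with the receptor Cxcr3, went from 9.19 ± 2.84 to 4.10 ± 0.0769 CPM, and Cxcr3 itself from 9.25 ± 0.984 to 4.68 ± 0.983 CPM. Rsad2, the antiviral viperin and the most abundant member, was at 1276 ± 219 CPM in controls and 2277 ± 160 CPM in 67NR spleens, under the 2-fold limit after scaling (log2 fold change 0.74, edgeR adjusted p = 0.0550).

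Ackr4, a scavenging receptor for the chemokines Ccl19 and Ccl21, was at 45.8, 36.2 and 20.1 CPM in controls and at 7.96, 16.6 and 9.64 CPM in 67NR spleens (log2 fold change -1.69, edgeR adjusted p = 0.0212). Together with Cxcr3 it was 1 of 2 called members of 21 chemokine receptors, both lower, beside 1.07% of all genes called lower. The largest decrease among genes with a mean of at least 5 CPM and no overlap was that of Sectm1a, which fell from 14.9 ± 4.21 to 3.38 ± 0.622 CPM (log2 fold change -2.23, SE 0.29, edgeR adjusted p = 0.00908). Klk1, a kallikrein counted here among plasmacytoid dendritic cell markers, fell from 26.2 ± 9.63 to 7.18 ± 0.980 CPM and was not called without control library 8 (edgeR adjusted p = 0.177) or 67NR library 16 (edgeR adjusted p = 0.127). Cox6a2, of the same list, fell from 6.75 ± 0.376 to 3.51 ± 0.897 CPM. The other 6 of these 8 markers, which include Siglech and Bst2, were not called, and the list's median log2 fold change was -0.59.

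The 2 neutrophil lists held 1 gene called higher and 1 called lower in 67NR against control spleens, beside 1.45% of all genes called higher and 1.07% lower. None of 14 granule genes of immature neutrophils was called, and Ngp, the most abundant, was at 34.8 ± 11.9 CPM in controls and 59.3 ± 10.1 CPM in 67NR spleens (SD, n = 3 per group; edgeR adjusted p = 0.347). Of 13 genes of mature neutrophils, Csf3r, the receptor for granulocyte colony-stimulating factor, was called higher at 8.09 ± 0.693 against 3.12 ± 0.288 CPM, and Retnlg was called lower at 23.0 ± 2.35 against 54.7 ± 16.8 CPM (SD, n = 3 per group). S100a8, the alarmin of neutrophils, had a log2 fold change of -0.55 (edgeR adjusted p = 0.384). In the direct test of 4T07 against 67NR spleens the log2 fold change of S100a8 was 4.93 (edgeR adjusted p = 3.17e-07) and that of Ngp 5.99 (edgeR adjusted p = 2.15e-07), and 4T1 against 67NR spleens gave 5.14 and 5.18.

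The genes described above were also compared between 67NR spleens and those of the other lines. Klf1 stood at 319 ± 23.1 CPM in 4T07 and 313 ± 39.3 CPM in 4T1 spleens, against 249 ± 50.5 CPM in 67NR spleens (SD, n = 3 per group; log2 fold changes 0.64 and 0.69, edgeR adjusted p = 0.0276 and 0.0139), and without 67NR library 17 the adjusted p for 4T07 was 0.133. Slc25a37 was at 1105 ± 260 CPM in 4T07 spleens and 972 ± 177 CPM in 4T1 spleens, with log2 fold changes of -0.31 and -0.43 against 67NR (edgeR adjusted p = 0.323 and 0.133). Rrm2 was more than 2-fold higher in 4T1 than in 67NR spleens, with a log2 fold change of 1.39 (edgeR adjusted p = 7.04e-04). In 4T07 against 67NR spleens its log2 fold change was 0.77 (edgeR adjusted p = 0.0376). That value was 1.06 without 67NR library 16 and 0.55 without 67NR library 17. H2-Eb1 was at 304 ± 40.8 CPM in 4T07 and 415 ± 105 CPM in 4T1 spleens, and its log2 fold changes against 67NR were -0.15 and 0.37, neither past the threshold. H2-Aa was higher in 4T1 than in 67NR spleens, with a log2 fold change of 1.11 (edgeR adjusted p = 0.00722), which was 0.98 without 67NR library 18 and 0.90 without 4T1 library 41, under the 2-fold limit. In 4T07 against 67NR spleens H2-Aa had a log2 fold change of 0.32 (edgeR adjusted p = 0.431). H2-Aa did not stand for its list. Over the 12 class II genes tested, the median log2 fold change against controls was -1.23 in 4T07 and -0.995 in 4T1 spleens. That median was -0.58 in 67NR spleens, with no test of the list between lines. Klk1 was at 11.5, 12.7 and 49.6 CPM in 4T1 spleens, with a log2 fold change of 2.15 against 67NR (edgeR adjusted p = 0.00270), and its highest value was in library 42, where the pancreatic markers summed to 6575 CPM against 451 and 653 CPM in the other 4T1 spleens. Without library 42 the log2 fold change of Klk1 was 1.09 (edgeR adjusted p = 0.0180). In 4T07 against 67NR spleens Klk1 had a log2 fold change of -0.47 (edgeR adjusted p = 0.563).

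**Figure D4:**
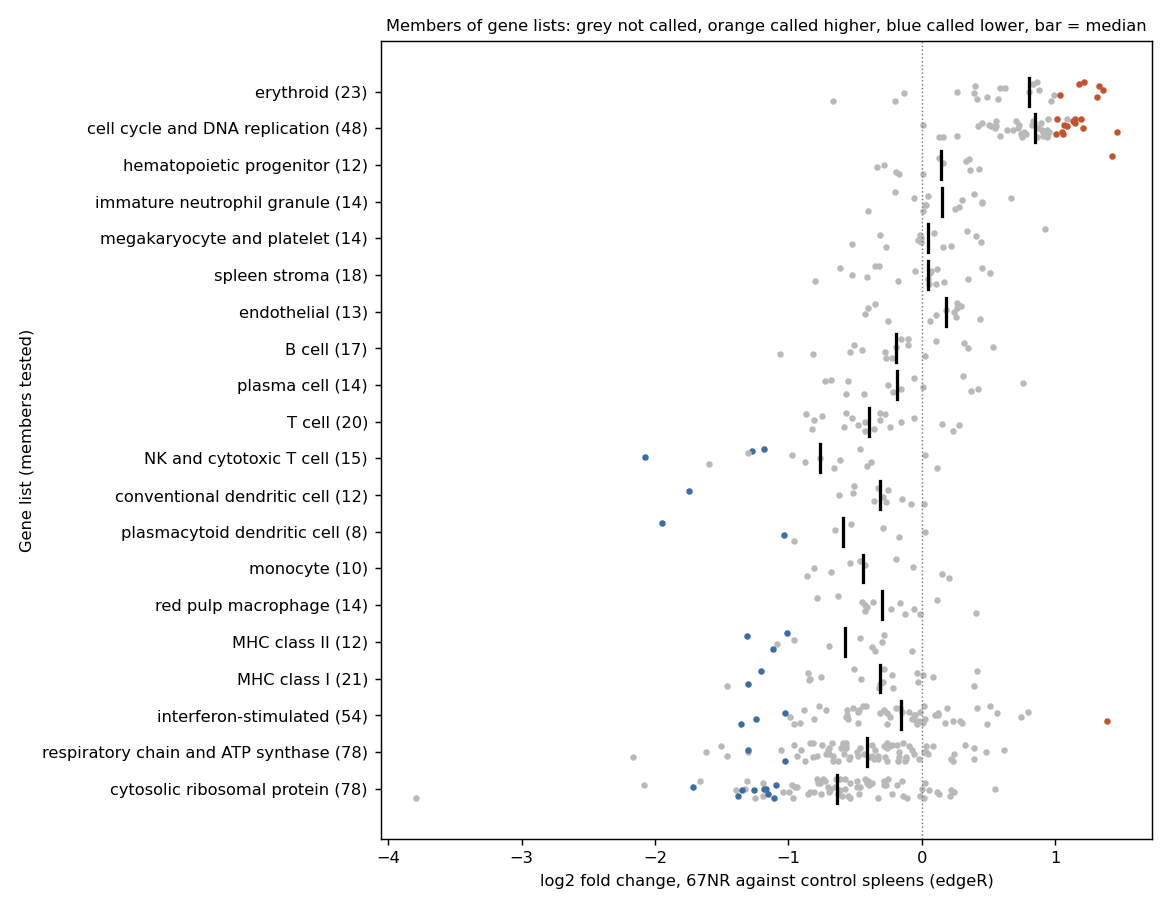
Log2 fold change of 67NR against control spleens for the tested members of 20 gene lists (number tested in parentheses), with called members in orange (higher) or blue (lower), others in grey and the list median as a black bar. The medians of the erythroid and cell cycle lists lie at 0.80 and 0.85, and those of the cytotoxic and ribosomal lists at -0.76 and -0.64.

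Several marker lists of spleen populations had no called member. Over all genes 1.45% were called higher and 1.07% lower, and at these shares lists of this size hold few or no calls. None of 17 B cell, 14 plasma cell, 20 T cell, 10 monocyte, 14 red pulp macrophage, 18 stromal and 13 endothelial markers was called, with median log2 fold changes of -0.19, -0.19, -0.39, -0.44, -0.29, 0.05 and 0.18. Outside these lists, the light chain genes Iglc2 and Iglc3, at means of 884 and 500 CPM, were called lower, and also in 3 of the 6 fits without 1 library. They were picked after their values were seen, with no count of like genes not called. Fcna, a macrophage gene given below, was also called lower. Ighm, the IgM heavy chain, was at 3821 ± 791 CPM in controls and 2818 ± 136 CPM in 67NR spleens (log2 fold change -0.54, edgeR adjusted p = 0.160). Of the T cell genes, Trbc2, a constant region of the T cell receptor, was at 273 ± 53.9 CPM in controls and 166 ± 21.4 CPM in 67NR spleens (SD, n = 3 per group; edgeR adjusted p = 0.0294), under the 2-fold limit. Csf1r, the receptor that sustains monocytes and macrophages, had a log2 fold change of -0.68 (edgeR adjusted p = 0.0568). None of 18 circadian clock, 14 glucocorticoid response, 23 immediate early and 18 heat shock genes tested was called, beside the same shares over all genes. Of 21 pancreatic markers tested only Try4 was called lower, and its signal came from control library 8, at 98.5 CPM against 1.36 CPM or less in the other 5 libraries.

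Genes with short transcripts had lower median log2 fold changes than genes with long ones, a description across genes with no test. Among the 11408 genes with a mean of at least 5 CPM, of which 89.6% had a known transcript length, the median log2 fold change was -0.40 under 1 kb, -0.09 from 1 to 2 kb, -0.00069 from 2 to 4 kb and 0.08 over 4 kb. Of the 657 genes under 1 kb, 50 (7.61%) were called lower and 6 (0.913%) higher. Cytosolic ribosomal protein genes had 9 of 78 members called lower, 19 lower at an adjusted p under 0.10 with any fold, and a median log2 fold change of -0.64. Rpl37 was at 3737, 2921 and 1942 CPM in controls and at 950, 1213 and 1699 CPM in 67NR spleens, so that control library 9 lay closest to the 67NR spleens (log2 fold change -1.26, edgeR adjusted p = 0.0212). Ribosomal protein genes have many processed copies, between which reads may be split. Of 78 genes of the respiratory chain and ATP synthase, Cox6c and Ndufb5 were called lower, beside 1.07% of all genes. With an offset for transcript length, an alternative chosen after seeing the data, none of the 78 ribosomal genes was called and their median was -0.39. None was called without control library 8 or 67NR library 16 either, 1 without control library 7, 2 without 67NR library 17, and 24 without control library 9. In lungs the median of the same 78 genes in 67NR against control mice was -0.92. The short-transcript share of counts moved with the groups, at 17.2% to 21.4% in controls and 15.5% to 16.8% in 67NR spleens.

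**Figure D5:**
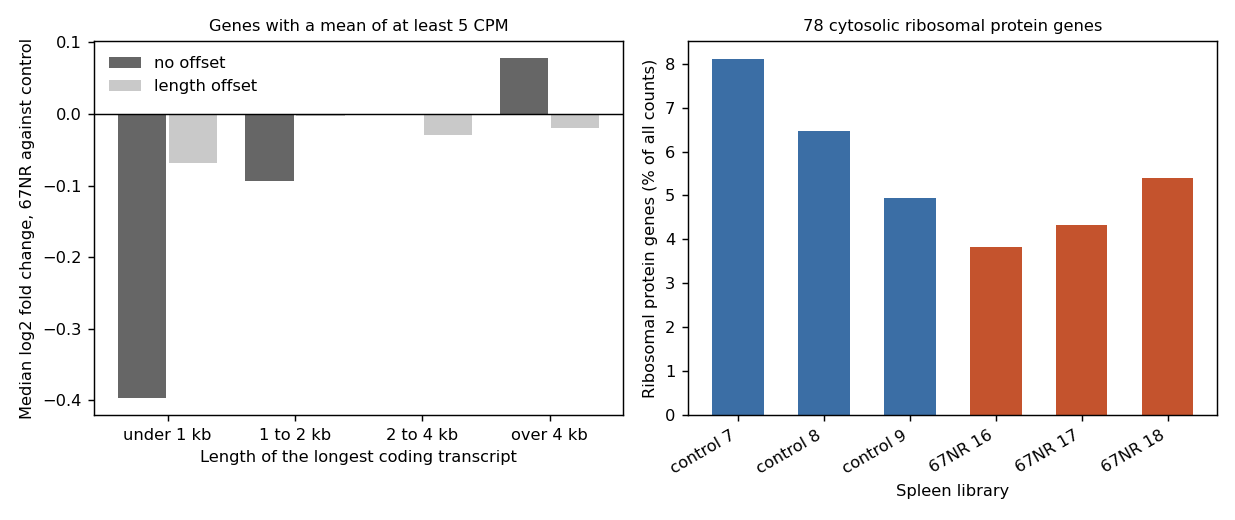
Left, median log2 fold change of 67NR against control spleens in 4 classes of transcript length for genes with a mean of at least 5 CPM, without (dark) and with (light) an offset for length. Right, share of all counts on 78 cytosolic ribosomal protein genes in each control (blue) and 67NR (orange) spleen, which ran from 3.82% in 67NR library 16 to 8.10% in control library 7.

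The response of the spleen was set against that of other organs of mice with 67NR tumors as an interaction, the difference of log2(67NR/control) between tissues, in a fit of 18 libraries. Between spleen and lung, 48 genes (0.249%) differed by more than 2-fold at an adjusted p under 0.10, and between spleen and scaffold 2 genes (0.0104%). DESeq2 gave 241 and 144 genes. Of the erythroid markers none differed between spleen and lung or between spleen and scaffold. The median log2 fold change of the 23 markers was 1.03 in lungs and 1.44 in scaffolds, beside 0.80 in spleens, with no test of the list. Klf1 had a log2 fold change of 1.39 in lungs (edgeR adjusted p = 0.120) and a difference between the tissues of -0.20. The T cell coreceptor gene Cd4 had -0.87 in spleens and 1.25 in lungs (difference -2.14, SE 0.48, edgeR adjusted p = 0.0880). Without control library 8 no gene passed in either comparison, and without control library 9 there were 522 and 620 genes.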

How the data were processed

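RNA from 3 control and 3 67NR spleens was sequenced as QuantSeq libraries, made from the 3' end of each transcript. The authors deposited raw counts for each gene symbol. The submitters' processing notes name Trim Galore 0.5.0, STAR 2.6.0 and featureCounts. The labels name a molecular identifier (UMI) add-on to the kit. The genome build, the annotation and whether reads were collapsed by UMI are not given in the sources used here. The table had 55487 lines, of which 120 repeated a symbol and were added up. Genes with more than 10 counts over the 6 spleens were tested with edgeR 4.0.16 in R 4.3.3, using TMM factors, the quasi-likelihood F test, Benjamini-Hochberg adjustment and all 12 spleens in the fit, so that the 4 groups share a common estimate of the spread. CPM are scaled to library totals without TMM factors, so fitted fold changes can differ from ratios of CPM. DESeq2 1.42.0, its size factors, 3 other filters, a fit of the 6 libraries, each library left out and, chosen after seeing the data, each library of the other lines left out and an offset for transcript length (the longest coding transcript of a symbol in GENCODE) were alternatives. The steps were tested on simulated data. Of the 6 pairs of libraries within groups none was identical.

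The genes, lists and members were chosen with earlier results of these data known. Genes that could be named were the 12 largest changes per direction without overlap and with a mean of at least 5 CPM. They also were up to 8 called members and the 3 most abundant members of each list, and the genes of the study's signatures. The text does not name all of these, and it leaves out most of the 12 largest increases. Further genes were named after their values were seen. The length check is void for the genes called as a set, of which 68.9% have a known length, and was read only over genes and lists where at least 80% do. It still counts among the 13 alternatives, where genes without a known length took the offset of a median length. Some genes are not reported here.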

Additional observations from a re-analysis of the deposited data

Results flagged for a closer look

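The difference of log2(67NR/control) between spleen and lung passed an adjusted p under 0.10 and a 2-fold difference in 48 genes (edgeR's quasi-likelihood interaction test), and 17 of them that were called in the spleen or belong to a gene list are given here. These genes were flagged because the effect in one tissue was tested to differ from the effect in the other. The spleen minus lung difference was 1.09 for Azin1, which protects polyamine synthesis, 1.23 for B3glct, 2.14 for Gm14427, 2.86 for Gm37694, 2.54 for Gm49159, 1.90 for Gpsm2, which orients the mitotic spindle, 1.14 for Lancl2 and 1.61 for Slc38a5, an amino acid transporter of red cell precursors; all 8 were called higher in 67NR spleens. It was -2.19 for Alox15, -1.71 for Cnp, -2.85 for Mir6236, -1.71 for Rgs5 and -1.17 for Serpina3g, which were called lower in 67NR spleens. For list members that were not called in the spleen it was -1.19 for the complement gene C1qc, -2.14 for Cd4, -1.47 for Jund and 1.20 for Rpl14. Cd4 had a log2 fold change of -0.87 in spleens and 1.25 in lungs, and Gpsm2 had 1.03 and -0.90.

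Between spleen and scaffold 2 genes were flagged in the same way. The difference was -1.47 for Igha, the IgA heavy chain, which had a log2 fold change of 0.42 in spleens and 1.86 in scaffolds, and -1.88 for Sema3c, with -1.24 in spleens and 0.62 in scaffolds. None of these differences passed without control library 8, when the count of genes was 0 in both comparisons.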

How the results depend on the processing

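No gene called in the main test turned its direction under any of the 13 alternatives in which it was tested, and 34 of the 486 were called in all of them. With at least 10 counts required in each of the 6 libraries, only 352 of the 486 were tested. Leaving out each library gave 52 to 1083 genes called, 31 to 565 higher and 21 to 518 lower. Called members then ranged from 2 to 9 for the erythroid list, 1 to 22 for the cell cycle, 0 to 24 for ribosomal proteins, 1 to 3 for MHC class II and 0 to 6 for cytotoxic genes, and genes that differed between spleen and lung from 0 to 522, or between spleen and scaffold from 0 to 620. With no count filter, 747 genes were called, 332 higher and 415 lower, and 19 ribosomal members were lower. At least 10 counts in each of the 6 libraries gave 388 genes called and 15 ribosomal members lower, and the length offset, chosen after seeing the data, gave 425 genes and 0 ribosomal members. DESeq2's Wald test gave 241 genes for spleen against lung and 144 for spleen against scaffold, and DESeq2 size factors in edgeR gave 1 for scaffold. The cause of these differences was not tested. The fit of only the 6 libraries shifted the calls to 239 higher and 243 lower. Of the 69 named genes called, 11 passed under every alternative. No paired analysis was possible because the control and 67NR spleens came from different mice. Low genes are limited by depth: 3 counts equal 0.583 to 0.766 CPM.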

Other observations

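The 34 genes called under every alternative, 21 higher and 13 lower, were listed after their values were seen. Beside Klf1, Rhag, Steap3 and Ube2c they include Nfe2, a transcription factor of globin and platelet genes, which was at 21.4, 22.4 and 29.3 CPM in controls and 78.5, 54.4 and 81.2 CPM in 67NR spleens (log2 fold change 1.46, SE 0.22, edgeR adjusted p = 0.00944). Slc43a1, an amino acid transporter, went from 100 ± 41.6 to 348 ± 73.7 CPM and Slc2a4, the insulin-responsive glucose transporter, from 15.5 ± 6.09 to 47.3 ± 7.79 CPM (SD, n = 3 per group). The mitotic genes Kifc1, Cit, Ccnf, Spag5 and Troap had log2 fold changes of 1.24, 1.18, 1.24, 1.42 and 1.27; reads of Kifc1 may be shared with its near copy Kifc5b. Among the 13 lower genes, Fcna, a ficolin of red pulp and marginal zone macrophages, was at 825, 968 and 920 CPM in controls and 379, 503 and 361 CPM in 67NR spleens (log2 fold change -1.22, SE 0.20, edgeR adjusted p = 0.00944). Clec4n, the dectin-2 receptor, fell from 203 ± 41.7 to 90.5 ± 13.3 CPM, Capg, an actin-capping protein of macrophages, from 64.0 ± 7.22 to 29.7 ± 5.47 CPM, and Prox1, a transcription factor of lymphatic endothelium, from 30.3 ± 3.28 to 13.2 ± 0.841 CPM.

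Among the genes called higher that are in no list used here, picked after their values were seen and with no count of like genes that were not called, Alad of heme synthesis had a log2 fold change of 1.11, Ank1 of the membrane skeleton of 1.12 and the transcription factor gene Tal1 of 1.15. The signaling adaptors Tyrobp and Hcst, which serve receptors of natural killer and myeloid cells, fell by 1.35 and 1.02 on the log2 scale (edgeR adjusted p = 0.00944 and 0.0274), Tyrobp from 327 ± 64.5 to 138 ± 23.9 CPM (SD, n = 3 per group). Id1 fell from 42.4 ± 1.88 to 22.1 ± 2.76 CPM and S100a4 from 217 ± 50.0 to 103 ± 32.7 CPM. Mcpt4 and Cma1, mast cell proteases, were called lower with at most 6 and 7 counts in a 67NR library. The other 8 of 10 basophil and mast cell markers were not called. The summed level of these markers overlapped, at 37.1 to 51.1 CPM in controls and 36.8 to 45.5 CPM in 67NR spleens. Of the 9 tested genes of the study's 9-gene scaffold list, Ifitm1 was called, at 67.0 ± 5.43 CPM in controls and 35.3 ± 8.25 CPM in 67NR spleens, and of the 9 tested genes of its earlier 10-gene list none was called. Over all genes 1.45% were called higher and 1.07% lower.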
